A study of Mus musculus with 12 samples.

Results

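Complement is a set of plasma and cell surface proteins that mark microbes and dying cells, and macrophages both make several of its components and read its products. C1q starts the classical pathway, *Cfb* and *Cfp* encode the protease and the stabilizer of the alternative pathway, and all pathways meet at the cleavage of C3. The fragments released from C3 and C5 act on G protein-coupled receptors of myeloid cells, while inhibitors limit each step. The genes examined here are 9 complement genes, taken from the count table by matching Ensembl identifiers to the symbols *C3*, *Cfb*, *Cfp*, *C1qa*, *C1qb*, *C1qc*, *C3ar1*, *C5ar1* and *Serping1*. All 9 were found among the 48526 genes of the table, and 8 of them were among the 12421 genes that had at least 10 counts in at least 3 libraries and were tested. *Serping1* was not tested, because its counts were too low.

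RNA-seq was performed on bone marrow-derived macrophages (BMDMs), which are grown from whole marrow with macrophage colony-stimulating factor (mCSF), from 3 female C57Bl/6J mice. On day 7 each mouse's cells were kept untreated or received 100 pg/mL IL-4, 100 ng/mL Wnt3a, a protein that activates the Wnt pathway, or both for 16 hr, and the labels name no engineered allele. The study asked whether Wnt signaling changes the response of macrophages to IL-4. The deposited Wnt3a and Wnt3a+IL-4 columns of a mouse share reads, since the Wnt3a count lay between the Wnt3a+IL-4 count and its double in all 48526 genes of each mouse. They were therefore resolved into the difference (Wnt3a column minus Wnt3a+IL-4 column) and the remainder (Wnt3a+IL-4 column minus the difference). Both come from cells that received Wnt3a, and the labels do not tell which of them also received IL-4. Under the first assignment the difference is Wnt3a alone and the remainder is Wnt3a+IL-4, and the other assignment is the reverse.

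The 12 libraries held 13342492 to 17453377 counts each, and levels are given as normalized read counts (CPM, the count relative to the TMM-scaled library total). Markers of macrophages summed to between 44590 and 68870 CPM in every library, and 0 of the 10 were at or below 3 counts throughout a group. *Lyz2* made up most of this sum, with group means from 37890 CPM (IL-4) to 52990 CPM (difference). Summed markers of other cells were low, with 6.32 to 33.3 CPM for stromal cells, 64.8 to 148 CPM for neutrophils, 2.96 to 4.73 CPM for lymphocytes and 3.45 to 26.0 CPM for dendritic cells. These are bulk samples, so a change in the share of cells that express a gene cannot be told apart from a change in RNA per cell.

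Promoter sequences from RefSeq (GRCm38.p6, the build of the mm10 counts) were matched by symbol for 6 of the 9 genes. Those of *C3*, *C1qb* and *Cfp* are shown as the 250 bases before the start, 5′ to 3′ on the minus strand. *C3* and *Cfp* were called higher in both Wnt3a-treated parts, and *C1qb* was called lower in the difference. The promoters of *C1qc*, *C3ar1* and *C5ar1*, also called lower in the difference, are not shown, although *C5ar1* was called lower in the remainder too. Capitals mark a match to a C/EBP motif in *C3* and to a PU.1 motif in *C1qb*, and *Cfp*, *C3ar1* and *C5ar1* held no match to any motif searched.
C3, chr17:57228137-57228386: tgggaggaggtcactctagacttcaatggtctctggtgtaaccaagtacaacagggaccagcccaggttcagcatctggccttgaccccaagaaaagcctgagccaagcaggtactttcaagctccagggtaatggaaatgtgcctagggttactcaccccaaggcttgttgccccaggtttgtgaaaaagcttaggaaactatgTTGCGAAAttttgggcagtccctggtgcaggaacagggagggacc
C1qb, chr4:136886201-136886450: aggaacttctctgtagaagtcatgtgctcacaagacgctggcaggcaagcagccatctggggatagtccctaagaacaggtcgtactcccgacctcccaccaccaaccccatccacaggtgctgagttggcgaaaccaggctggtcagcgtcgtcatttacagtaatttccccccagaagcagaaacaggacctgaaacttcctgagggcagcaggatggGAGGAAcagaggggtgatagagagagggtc
Cfp, chrX:20931556-20931805: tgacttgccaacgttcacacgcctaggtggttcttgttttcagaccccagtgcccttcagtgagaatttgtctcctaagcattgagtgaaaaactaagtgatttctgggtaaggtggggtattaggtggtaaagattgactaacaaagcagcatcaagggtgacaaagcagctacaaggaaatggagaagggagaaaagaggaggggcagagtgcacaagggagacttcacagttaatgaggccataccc
The motifs were read on both strands in the 6 promoters and in all 32851 RefSeq promoters of the same length. The C/EBP motif (TTGCNNAA) occurred in 1 of the 6, *C3*, from 45 to 38 bases before the start, and in 9.56% of all promoters. The PU.1 motif (GAGGAA) occurred in 2 of the 6, in *C1qb* from 30 to 25 bases before the start and in *C1qc* from 193 to 188 bases before it, and in 23.3% of all promoters. The NF-κB consensus occurred in 1 of the 6, *C1qc*, from 41 to 32 bases before the start, and in 3.90% of all promoters. The STAT motif (TTCNNNGAA), the STAT6-type motif that has 1 more base in the gap, the interferon-stimulated response element and the TCF/LEF motif (CTTTGAT or CTTTGAA) occurred in 0 of the 6, against 7.02%, 5.85%, 2.98% and 7.48% of all promoters. None of these motifs was searched beyond the 250 bases, and a match of letters is not a bound site.

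*C3* (ENSMUSG00000024164), the component on which all complement pathways converge, was the only member called higher with IL-4, and it rose further in both Wnt3a-treated parts. It lies on the minus strand of chromosome 17 from 57203970 to 57228136 (mm10), and its exons overlap no other gene. Untreated cells of mouse 1, 2 and 3 had 506, 505 and 694 CPM of *C3*, from 9418, 7853 and 11057 counts. IL-4-treated cells had 1277, 1040 and 953 CPM. The difference held 3572, 4375 and 3557 CPM, and the remainder held 6300, 6370 and 5918 CPM. The ranges of the 4 groups did not overlap, in the order untreated, IL-4, difference, remainder, and each mouse followed that order. IL-4 raised *C3* by 0.94 on the log2 scale (standard error, SE, 0.14, 1.92-fold, adjusted p = 0.0012, edgeR's quasi-likelihood test). The rise over untreated cells was 2.76 (SE 0.15, 6.75-fold, adjusted p = 1.8e-08) in the difference and 3.45 (SE 0.15, 10.9-fold, adjusted p = 2.7e-09) in the remainder, by the same edgeR test.

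*C3* took between 0.0511% and 0.0713% of all counts in untreated libraries and between 0.573% and 0.632% in the remainder. Per kilobase of exon, it ranked 325 of 12398 genes in untreated cells, 153 with IL-4 and 46 in the difference, and it reached 31 in the remainder. The remainder exceeded the difference by 0.69 on the log2 scale (SE 0.14, adjusted p = 0.0096, edgeR) and was higher in 3 of 3 mice. That call was lost without mouse 1 (adjusted p = 0.058), without mouse 3 (adjusted p = 0.11) and without the difference of mouse 3 (adjusted p = 0.053), each in edgeR. The calls of *C3* against untreated cells held without any mouse or library.

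**Figure D1:**
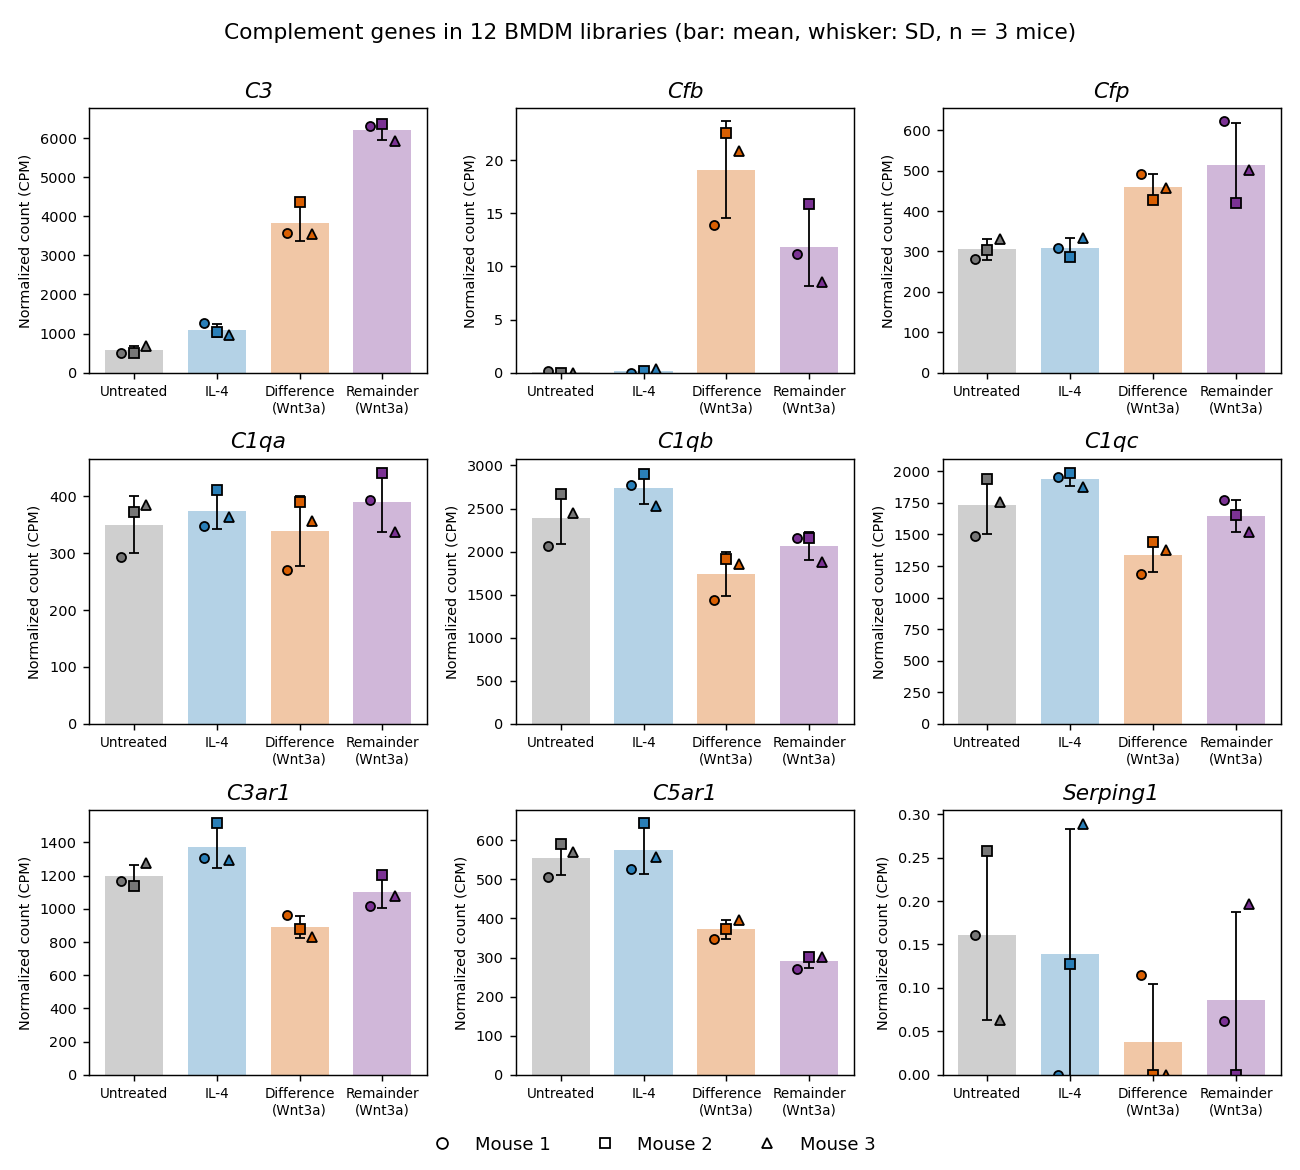
Normalized read counts (CPM, linear axes that start at 0) of the 9 complement genes in untreated, IL-4, difference and remainder libraries, with bars for the mean, whiskers for the SD and a symbol for each of 3 mice. *C3* steps up through the 4 groups without overlap, *Cfb* is near 0 outside the Wnt3a-treated libraries, and *C5ar1* is lowest in the remainder.

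*Cfb* (ENSMUSG00000090231) encodes factor B, which supplies the protease of the alternative pathway's C3 convertase. It was nearly silent in cells that had not received Wnt3a and present in all 6 libraries of cells that had. Untreated libraries held 3, 0 and 0 counts in mouse 1, 2 and 3, and IL-4 libraries held 0, 2 and 5. The difference held 243, 369 and 287 counts, or 19.1 ± 4.57 CPM (SD, n = 3), and the remainder held 179, 258 and 130 counts, or 11.8 ± 3.71 CPM (SD, n = 3). With the untreated libraries set to a floor of 3 counts each, which covers counting error only, *Cfb* was at least 72.1-fold higher in the difference and at least 44.3-fold higher in the remainder. Both rises passed edgeR's test, with adjusted p = 1.9e-07 and adjusted p = 4.3e-07, and the remainder also exceeded IL-4-treated cells (adjusted p = 1e-06, edgeR). *Cfb* passed the count filter only through Wnt3a-treated libraries, so these p-values are not independent of that filter and add no support.

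The remainder held less *Cfb* than the difference in 3 of 3 mice, but the ranges overlapped and the log2 fold change of -0.69 (SE 0.28) did not pass edgeR's test (adjusted p = 0.20). It passed when all genes with at least 1 count were kept, at -0.69 and adjusted p = 0.0015 in edgeR. *Cfb* lies on the minus strand of chromosome 17 from 34856374 to 34862518. Of its exon bases, 79.5% also belong to *Gm20547*, a gene on the same strand, which had 0 counts in every library. Likewise, 73.0% of the 50-base stretches in its transcripts are found in another gene too, chiefly *Gm20547*. The *Cfb* counts are therefore uncertain as a level, and its level per length was not compared with other genes.

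*Cfp* (ENSMUSG00000001128, minus strand of chromosome X from 20925454 to 20931555) encodes properdin, which stabilizes the same convertase. Its level was 281, 302 and 331 CPM in untreated cells and 308, 285 and 334 CPM in IL-4-treated cells of mouse 1, 2 and 3. The difference held 493, 428 and 456 CPM and the remainder held 623, 420 and 503 CPM. All Wnt3a-treated libraries lay above all others, and the IL-4 and untreated libraries overlapped. The log2 fold change against untreated cells was 0.59 (SE 0.12, adjusted p = 0.0030, edgeR) in the difference, compared with 0.76 (SE 0.12, adjusted p = 0.00039, edgeR) in the remainder. The call in the difference was narrowly lost without mouse 3 (adjusted p = 0.051, edgeR). The interval of the IL-4 effect, from -0.24 to 0.28, is the range of changes these libraries allow.

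The classical pathway is opened by C1q, a hexamer of triplets built from the chains of *C1qa*, *C1qb* and *C1qc*, and macrophages are its main source. The 3 genes lie side by side on the minus strand of chromosome 4, from 136895917 to 136898803 (*C1qa*), from 136880129 to 136886187 (*C1qb*) and from 136889804 to 136893065 (*C1qc*). They were already among the most abundant transcripts of untreated BMDMs. Per kilobase of exon, *C1qb* ranked 14 and *C1qc* ranked 32 of 12398 genes there, and *C1qa* ranked 82. IL-4 changed none of the 3 past the threshold, with log2 fold changes of 0.10, 0.19 and 0.16 for *C1qa*, *C1qb* and *C1qc*.

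*C1qb* fell in the difference relative to untreated cells. Untreated cells of mouse 1, 2 and 3 had 2061, 2669 and 2449 CPM, IL-4-treated cells had 2773, 2905 and 2535 CPM, the difference held 1441, 1908 and 1855 CPM and the remainder held 2163, 2155 and 1878 CPM. The log2 fold change in the difference was -0.46 (SE 0.12, adjusted p = 0.013, edgeR), and that in the remainder was -0.21 (SE 0.12, adjusted p = 0.22, edgeR). The difference and the untreated libraries did not overlap, whereas the remainder overlapped the untreated range. *C1qc* had 1491, 1943 and 1758 CPM in untreated cells, 1954, 1987 and 1876 CPM with IL-4, 1189, 1442 and 1377 CPM in the difference, and the remainder had 1771, 1657 and 1518 CPM. It fell by 0.37 on the log2 scale in the difference (SE 0.11, adjusted p = 0.020, edgeR), and the remainder was within the spread of untreated cells (-0.07, adjusted p = 0.67, edgeR). These falls rested on few libraries. Without mouse 2 the edgeR adjusted p was 0.055 for *C1qb* and 0.10 for *C1qc*, without mouse 3 it was 0.11 and 0.17, and without the untreated library of mouse 2 it was 0.051 and 0.084, while *C1qc* was also lost without the difference of mouse 1 (0.068). In the remainder, *C1qb* was called lower without mouse 1 (-0.34, adjusted p = 0.031, edgeR).

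*C1qa* had 293, 373 and 384 CPM in untreated cells, 349, 412 and 364 CPM with IL-4, 270, 391 and 357 CPM in the difference, and the remainder had 393, 442 and 337 CPM. All 4 groups overlapped, and its log2 fold change was -0.05 (SE 0.14, adjusted p = 0.85, edgeR) in the difference, compared with 0.16 (SE 0.14, adjusted p = 0.45, edgeR) in the remainder. The 95% interval of *C1qa* in the difference ran from -0.351 to 0.259. Those of *C1qb* (from -0.725 to -0.203) and *C1qc* (from -0.601 to -0.146) overlapped it, so the intervals do not separate the chains. The chains were also compared within each library as ratios of CPM per kilobase of exon, which do not depend on library scaling. The ratio of *C1qb* to *C1qa* was 6.55 ± 0.40 (SD, n = 3) in untreated cells, 7.00 ± 0.52 (SD, n = 3) with IL-4, 4.91 ± 0.22 (SD, n = 3) in the difference, and the remainder had 5.08 ± 0.36 (SD, n = 3). The 6 Wnt3a-treated libraries ranged from 4.67 to 5.33 and the 6 others from 6.09 to 7.60, without overlap. The ratio of *C1qc* to *C1qa* was 2.67 ± 0.18 (SD, n = 3), 2.80 ± 0.21 (SD, n = 3), 2.15 ± 0.20 (SD, n = 3) and 2.29 ± 0.23 (SD, n = 3) in the same order. Wnt3a-treated and other libraries did not overlap here either, but only narrowly, with 2.426 at most against 2.464 at least. These ratios were described without a test.

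**Figure D2:**
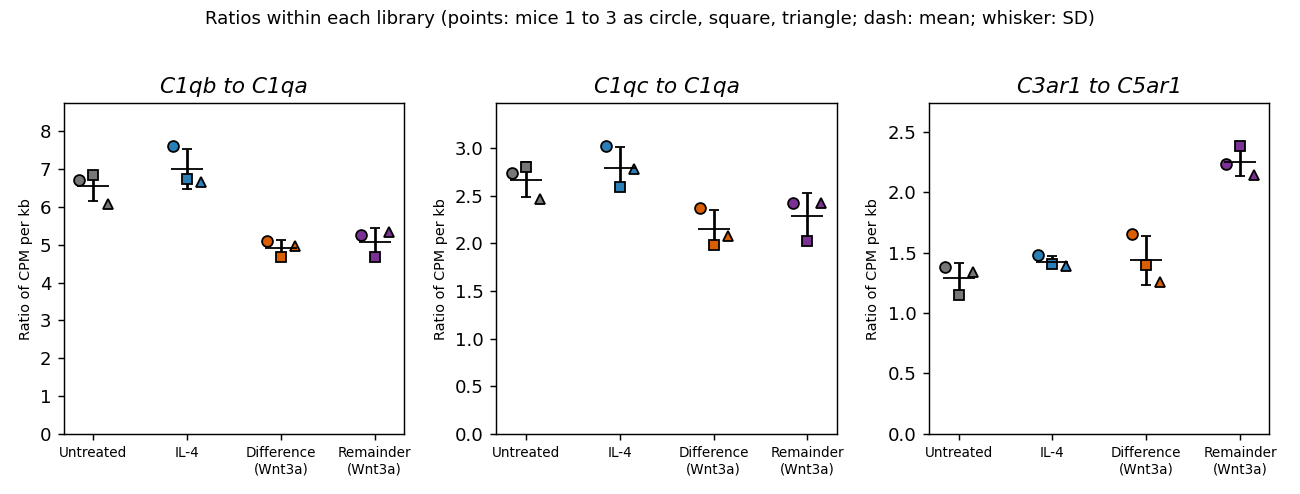
Ratios of CPM per kilobase of exon within each library (linear axes that start at 0) for the C1q chains and for the anaphylatoxin receptors, in untreated, IL-4, difference and remainder libraries of 3 mice, with dashes for the mean and whiskers for the SD. The ratio of *C1qb* to *C1qa* lies between 4.67 and 5.33 in Wnt3a-treated libraries and between 6.09 and 7.60 in the others, and the ratio of *C3ar1* to *C5ar1* is highest in the remainder.

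Of the anaphylatoxin receptors, which bind the small fragments split from C3 and C5, *C5ar1* fell in both Wnt3a-treated parts and *C3ar1* fell in the difference. *C5ar1* (ENSMUSG00000049130, minus strand of chromosome 7 from 16246743 to 16259540), the main receptor of the C5 fragment, had 507, 591 and 569 CPM in untreated cells and 527, 645 and 556 CPM with IL-4. The difference held 347, 374 and 395 CPM and the remainder held 272, 302 and 300.4 CPM. Each part lay below all untreated and IL-4 libraries, and the remainder lay below the difference. *C5ar1* fell by 0.58 on the log2 scale in the difference (SE 0.09, adjusted p = 0.00042, edgeR) and by 0.93 in the remainder (SE 0.09, adjusted p = 5.2e-06, edgeR). The remainder was lower than the difference by edgeR (-0.35, SE 0.09, adjusted p = 0.043), and lower in 3 of 3 mice. That last call depended on the libraries kept. The edgeR adjusted p was 0.058, 0.065 and 0.49 without mouse 1, 2 and 3, between 0.051 and 0.17 without any of 6 single libraries (untreated 3, IL-4 3, difference 2 and 3, remainder 1 and 3), and 0.055 with only the parts compared in the fit.

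*C3ar1* (ENSMUSG00000040552, minus strand of chromosome 6 from 122847138 to 122856161), the receptor of the C3 fragment, was lower in the difference than in untreated cells. Untreated cells had 1170, 1140 and 1276 CPM, IL-4-treated cells had 1304, 1518 and 1295 CPM, the difference held 960, 876 and 830 CPM and the remainder held 1018, 1202 and 1079 CPM. Every library of the difference lay below every other library, and the remainder overlapped the untreated range. The log2 fold change was -0.43 (SE 0.10, adjusted p = 0.0046, edgeR) in the difference, lost without mouse 3 (adjusted p = 0.17, edgeR), and -0.12 (SE 0.10, adjusted p = 0.38, edgeR) in the remainder. All 3 IL-4 libraries lay above all untreated ones, yet the rise of 0.20 (SE 0.10) did not pass edgeR's test (adjusted p = 0.36). The remainder was above the difference in 3 of 3 mice without passing (0.31, SE 0.10, adjusted p = 0.083, edgeR). Per kilobase of exon, the ratio of *C3ar1* to *C5ar1* was 1.29 ± 0.12 (SD, n = 3) in untreated cells, 1.43 ± 0.05 (SD, n = 3) with IL-4, 1.44 ± 0.20 (SD, n = 3) in the difference, and the remainder had 2.25 ± 0.12 (SD, n = 3). The ratio of *C3* to its fragment's receptor *C3ar1* went from 0.40 ± 0.05 (SD, n = 3) in untreated cells to 0.67 ± 0.13 (SD, n = 3), 3.63 ± 0.54 (SD, n = 3) and 4.74 ± 0.39 (SD, n = 3).

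*Serping1* (ENSMUSG00000023224, minus strand of chromosome 2 from 84765387 to 84775444) encodes the C1 inhibitor, which blocks the proteases bound to C1q. Its counts were 3, 4 and 1 in untreated libraries, 0, 2 and 4 with IL-4, 2, 0 and 0 in the difference, and the remainder had 1, 0 and 3. At this depth no difference between groups was detectable.

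The members called in each comparison were set against the share of all tested genes. The members were chosen with earlier results of these data known, so these shares are a description and not a test. In untreated cells, every tested member but *Cfb* ranked between 14 and 325 of 12398 genes per kilobase of exon. Small changes are easier to call at such levels. IL-4 alone changed 1 of 8 tested members (*C3*, higher), where 3.40% of all tested genes were called. The difference changed 7 of 8 relative to untreated cells (*Cfb*, *C3* and *Cfp* higher, and *C1qb*, *C1qc*, *C3ar1* and *C5ar1* lower), where 23.2% of all genes were called. The remainder changed 4 of 8 (*Cfb*, *C3* and *Cfp* higher, and *C5ar1* lower), against 25.3% of all genes. Between remainder and difference, 2 of 8 were called (*C3* higher and *C5ar1* lower), against 5.25% of all genes. Relative to IL-4-treated cells the remainder changed 6 of 8 (*Cfb*, *C3* and *Cfp* higher, and *C1qb*, *C3ar1* and *C5ar1* lower), against 20.3% of all genes. The median log2 fold change of the 8 was 0.18 with IL-4, -0.21 in the difference, compared with 0.04 in the remainder, and that of all tested genes was 0.00, -0.01 and -0.02. The comparisons with untreated cells share the untreated libraries. *Cfb* passed the count filter only through Wnt3a-treated libraries, so its calls against untreated and IL-4-treated cells are not independent of that filter. In the last comparison, the log2 fold changes were 2.51 for *C3* (SE 0.15, adjusted p = 5.5e-08), 0.74 for *Cfp* (SE 0.12, adjusted p = 6e-04) and -0.98 for *C5ar1* (SE 0.09, adjusted p = 4e-06), all by edgeR. The falls of *C1qb* (-0.41, SE 0.12, adjusted p = 0.029, edgeR) and *C3ar1* (-0.32, SE 0.10, adjusted p = 0.027, edgeR) were less firm. Without mouse 3 the edgeR adjusted p was 0.26 and 0.20, without mouse 2 it was 0.096 and 0.093, and without mouse 1 that of *C3ar1* was 0.071. Single libraries also ended them: without IL-4 of mouse 2 or the remainder of mouse 1 or 3 the adjusted p of both was between 0.052 and 0.13, and without IL-4 of mouse 1 that of *C1qb* was 0.069. *C1qc*, at -0.23 (adjusted p = 0.14, edgeR), passed without mouse 1 (-0.29, adjusted p = 0.045).

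**Figure D3:**
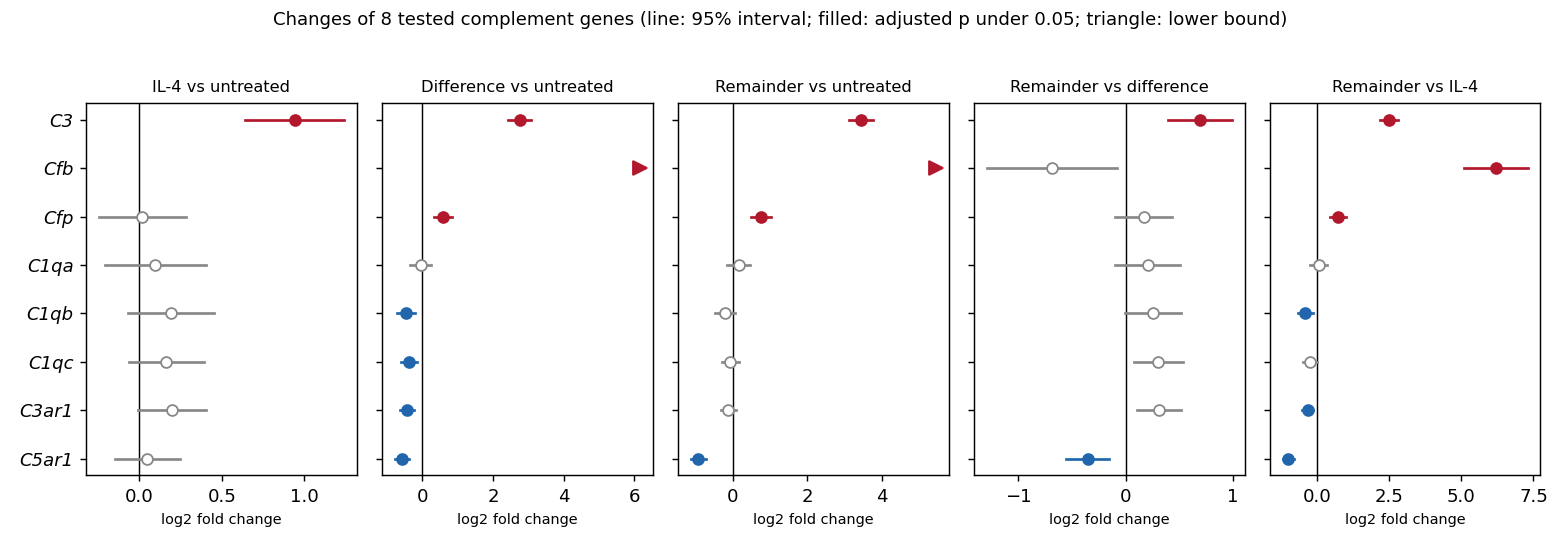
Log2 fold changes (x axes, each panel on its own scale) of the 8 tested complement genes in 5 comparisons, with lines for the 95% interval, filled points for adjusted p under 0.05 in edgeR and triangles for a lower bound. *C3* is to the right of 0 in all panels and *C5ar1* is called lower in the 4 panels with a Wnt3a-treated part, while *Cfb* with IL-4 is left out because its counts were 5 or fewer there.

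Whether the effect of IL-4 differed with Wnt3a was tested as an interaction under each assignment. The results under the first and the other assignment are not separate, because their sum is fixed by the effect of IL-4 alone. Under the first assignment (difference as Wnt3a, remainder as Wnt3a+IL-4), 0 of the 8 members were called by edgeR, against 0.105% of all genes. DESeq2 also called 0 members, and at an unadjusted p under 0.05 edgeR gave 1, *C5ar1* (-0.40, SE 0.13, unadjusted p = 0.0083), against 1576 of all 12421 tested genes. For *C3*, the IL-4 effect with Wnt3a (0.69) was smaller than that without (0.94) by 0.25 (SE 0.20, adjusted p = 0.66, edgeR), an interval from -0.67 to 0.17. Under the other assignment, 2 members were called, against 7.33% of all genes. *C3* had an interaction of -1.63 (SE 0.20, adjusted p = 9.7e-05, edgeR) and *C3ar1* of -0.51 (SE 0.13, adjusted p = 0.033, edgeR). With the mouse as a replicate block, *C3ar1* was no longer called (-0.50, adjusted p = 0.059, edgeR). It was also lost without mouse 2 (adjusted p = 0.23) or mouse 3 (adjusted p = 0.27) and without any of 7 single libraries (untreated 1 and 2, IL-4 2, difference 2 and 3, remainder 2 and 3), with adjusted p between 0.051 and 0.10 in edgeR, while *C1qc* passed without untreated 2 (-0.55, adjusted p = 0.032, edgeR).

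A further 48 complement genes were listed by pathway, of which 18 passed the count filter. IL-4 alone raised 2 of the 18 and lowered 0, the difference raised 6 and lowered 3, and the remainder raised 7 and lowered 5. Between remainder and difference 1 was higher and 1 was lower, and relative to IL-4 the remainder had 7 higher and 5 lower. Without mouse 3, 6 of these last 12 (*Fcna*, *Colec12*, *Clu*, *C5ar2*, *Itgb2* and *Itgax*) were not called (edgeR adjusted p between 0.059 and 0.17). *C1s1* and *Clu* passed the count filter only through Wnt3a-treated libraries. The shares of all tested genes are those given above, and this list too was chosen with earlier results of these data known. The median log2 fold change of the 18 was 0.03 with IL-4, 0.06 in the difference, compared with 0.05 in the remainder. Of the 30 that did not pass the filter, 12 had 0 counts in all libraries, among them *Cfd* (the protease that cuts factor B), *Cfi* and *C6*, and *Hc*, which encodes C5, had at most 1 count.

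Among the proteases that act with C1q, *C1ra* was at 3.24 ± 0.71 CPM (SD, n = 3) without treatment and rose to 11.7 ± 1.74 CPM (SD, n = 3) in the difference, and the remainder had 12.1 ± 1.04 CPM (SD, n = 3). Its log2 fold changes were 1.85 (SE 0.18, adjusted p = 4.4e-06) and 1.89 (SE 0.18, adjusted p = 3e-06) in edgeR. *C1s1* had at most 1 count in untreated libraries and rose to 1.78 ± 0.39 CPM (SD, n = 3) in the difference, and the remainder had 1.05 ± 0.29 CPM (SD, n = 3), at least 7.91-fold and 4.09-fold higher (edgeR adjusted p = 9.9e-06 and adjusted p = 6.9e-05). These p-values are not independent of the count filter, which *C1s1* passed only through Wnt3a-treated libraries. Of the *C1s1* exon bases, 18.4% overlap *Gm16567* on the other strand. The ficolin gene *Fcna* (log2 fold change -0.53, adjusted p = 0.023) and the collectin gene *Colec12* (log2 fold change -0.51, adjusted p = 0.019) were called lower in the remainder by edgeR. Both calls were lost without mouse 1, with adjusted p = 0.086 and 0.13, and without mouse 3, with adjusted p = 0.080 and 0.30. *Fcna* was also lost without mouse 2 (0.16) and without untreated 1 or 2 or remainder 3 (0.078 to 0.096), and *Colec12* without untreated 3 or remainder 1 or 3 (0.065 to 0.087), as adjusted p in edgeR. *Colec12* was lower in the remainder than in the difference (-0.56, adjusted p = 0.040, edgeR), but not with the mouse as replicate block (-0.57, adjusted p = 0.066) nor without any 1 of 8 libraries or mouse 1 or 3 (adjusted p between 0.054 and 0.34).

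Among the inhibitors, *Clu* (clusterin) rose in the remainder (2.28, SE 0.56, adjusted p = 0.0079, edgeR) from at most 0.386 CPM to between 0.657 and 1.30 CPM, and was lost without mouse 1 (adjusted p = 0.091) or mouse 3 (adjusted p = 0.070). As *Clu* passed the count filter only through Wnt3a-treated libraries, its p-value is not independent of that filter. The surface inhibitors *Cd55*, *Cd59a*, *Cd59b* and *Cr1l* were not called in any comparison. *Cd55* had at most 17 counts and *Cd59b* at most 23 counts in any library, so only large changes of these genes could be seen.

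The integrin chains that bind C3 fragments on surfaces rose in both Wnt3a-treated parts. *Itgax*, the alpha chain of complement receptor 4, had 373, 392 and 383 counts in untreated libraries of mouse 1, 2 and 3 and 3337, 2735 and 2137 with IL-4. The difference held 1060, 902 and 824 counts and the remainder held 3868, 3775 and 3962, or 244 ± 14.6 CPM (SD, n = 3). In CPM, the 4 groups did not overlap. The log2 fold change was 2.94 with IL-4 (SE 0.11, adjusted p = 2e-09), 1.34 in the difference (SE 0.11, adjusted p = 8.1e-07) and 3.40 in the remainder (SE 0.11, adjusted p = 1.3e-10), all by edgeR. *Itgam*, the alpha chain of complement receptor 3, rose by 1.07 in the difference, compared with 0.90 in the remainder (edgeR adjusted p = 1.4e-06 and adjusted p = 5.9e-06), although 68.7% of its exon bases also belong to *Gm49368* on the same strand. Their shared beta chain *Itgb2* rose by 0.67 and 0.61 (edgeR adjusted p = 0.00017 and adjusted p = 0.00028). *C5ar2*, the other receptor of the C5 fragment, fell by 0.59 in the difference, against a fall by 0.47 in the remainder (edgeR adjusted p = 0.0017 and adjusted p = 0.0072). The call in the remainder was lost without mouse 1 (adjusted p = 0.052) or mouse 2 (adjusted p = 0.068).

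Proteins linked to the uptake of C1q-marked cells split in direction. *Calr*, which encodes calreticulin, rose by 0.50 with IL-4 (edgeR adjusted p = 0.0090), 1.10 in the difference (adjusted p = 2.1e-06) and 1.31 in the remainder (adjusted p = 3.1e-07). The IL-4 call of *Calr* was lost without mouse 1 (adjusted p = 0.081) or mouse 3 (adjusted p = 0.25) and without IL-4 of mouse 1 (adjusted p = 0.051). *Lrp1*, its partner receptor on phagocytes, fell by 1.17 in the difference, and it fell by 1.04 in the remainder (edgeR adjusted p = 3.9e-05 and adjusted p = 9.8e-05). *Cd93* fell by 0.49 and 0.80 (edgeR adjusted p = 0.0010 and adjusted p = 1.3e-05). *C1qbp* was not called in any comparison, with log2 fold changes of 0.04 in the difference, compared with 0.13 in the remainder.

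**Figure D4:**
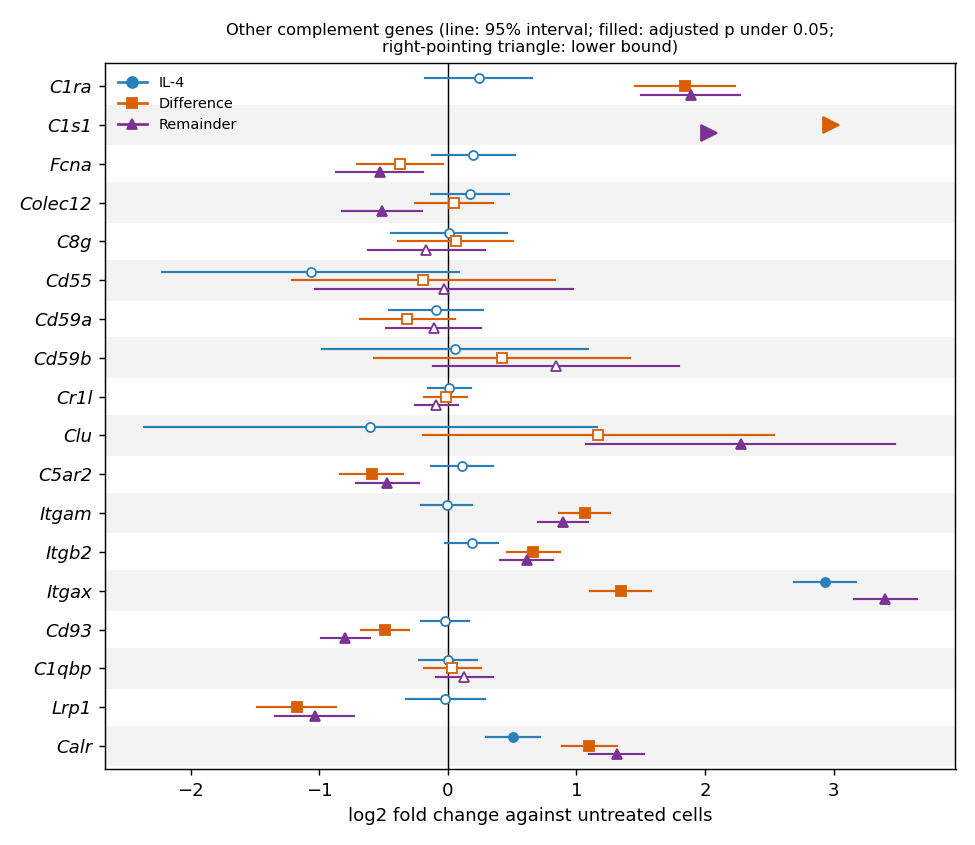
Log2 fold changes against untreated cells (x axis) of the 18 tested genes of the further complement list with IL-4, in the difference and in the remainder, with lines for the 95% interval, filled symbols for adjusted p under 0.05 in edgeR and larger triangles pointing right for a lower bound. *Itgax* stands at 2.94 with IL-4 and at 3.40 in the remainder, *C1s1* is shown as a bound and cannot be ranked, and *Lrp1* has the lowest value in both Wnt3a-treated parts.

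Markers of other cells were set beside these values. Summed stromal markers, the list of cells that also make *C3*, were 9.35 to 21.4 CPM in untreated libraries, 10.9 to 33.3 with IL-4, 6.32 to 12.5 in the difference, and the remainder had 7.31 to 17.6. *Col1a1* and *Col1a2* made up most of this sum, and *Pdgfrb* was called higher in the difference (2.05 ± 0.41 CPM against 1.02 ± 0.28 CPM in untreated cells, SD, n = 3, edgeR adjusted p = 0.036). *Cxcl12*, at a mean of 0.876 CPM in untreated cells, was called lower in the difference (log2 fold change -2.7, edgeR adjusted p = 0.0021). It was also called lower in the remainder (log2 fold change -2.5, edgeR adjusted p = 0.0026). Of the 10 stromal markers, 6 were at or below 3 counts in every library of both Wnt3a-treated parts. Summed dendritic cell markers were 3.45 to 4.25 CPM in untreated cells, 9.09 to 10.1 with IL-4, 4.58 to 8.81 in the difference, and the remainder had 11.6 to 26.0. Their sum was above the untreated range in every treated library, as were *C3* and *Itgax*, but single markers split in direction. By edgeR, *Ccr7* was called higher than in untreated cells in both Wnt3a-treated parts. *Batf3* was called higher with IL-4 and in the remainder, but not in the difference (-0.55, adjusted p = 0.22, edgeR). *Zbtb46* was called higher in the remainder. *Cd209a* was called lower in the difference (0 counts, adjusted p = 0.00034, edgeR) and in the remainder (adjusted p = 0.001, edgeR). Of the 8 dendritic cell markers, *Ccr7* made up most of the sum in the remainder (11.3 ± 7.35 CPM (SD, n = 3)), and *Xcr1*, *Clec9a* and *Cd209a* were at or below 3 counts in all 3 of its libraries. Neutrophil markers summed to 64.8 to 89.1 CPM in untreated cells, 101 to 108 with IL-4, 102 to 148 in the difference, and the remainder had 73.8 to 97.6. *Mmp8* was called higher in both Wnt3a-treated parts, at 87.8 ± 19.8 CPM (SD, n = 3) in the difference against 19.8 ± 6.75 CPM (SD, n = 3) in untreated cells. By contrast, *Ngp* was called lower in the difference (log2 fold change -0.55, adjusted p = 0.030, edgeR), and *S100a9*, *Camp*, *Ngp* and *Ltf* were called lower in the remainder (edgeR adjusted p between 0.00075 and 0.039). The part of stromal cells, dendritic cells and neutrophils in these results was not tested.

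Genes with a pattern over the 12 libraries most like that of a member were found as those with the smallest root-mean-square difference of centred log2 CPM. For *C3*, they were *H2-Ab1* (0.21), *H2-Eb1* (0.22) and *Slamf8* (0.25), where the spread of *C3* itself was 1.39 and the median of all genes was 1.42. For *Cfb* they were *Ly6i* (0.52), *Orm1* (0.76) and *Susd2* (0.81), against its own spread of 3.16. For the mean of the C1q chains they were *Triap1* (0.08), *F8a* (0.09) and *Cd72* (0.09), against a spread of 0.21. The libraries within a group share their treatment, so these values describe likeness and were not tested.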

How the data were processed

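Total RNA of BMDMs was sequenced as single reads. Per the labels and the study's methods, the authors checked reads with FastQC 0.11.7, used Trimmomatic 0.36 for trimming and STAR 2.6.0 for alignment to mm10, then SAMtools 1.9 for indexing and HTSeq 0.11.1 for counting, before their own comparisons in DESeq2 1.24.0. The deposited table holds unnormalized raw counts for each gene, and strand use is not given in the sources used here. Of 48526 identifiers, 48058 were paired with a symbol, and positions were taken from GENCODE on that build.

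The shared-read columns were solved for the difference and remainder, and 12 libraries were fitted together in edgeR 4.0.16 (R 4.3.3), with TMM scaling, no term for mouse, quasi-likelihood tests and Benjamini-Hochberg adjustment over 12421 genes at 0.05. A fold against a group with at most 3 counts in each library is a lower bound, from 3 counts per library. Logarithms for likeness used a prior count of 2. Scripts were tested on simulated data. Alternatives were DESeq2 1.42.0, other scalings, filters and thresholds, the deposited columns, leaving out single mice or libraries, and a replicate block.

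The labels give 1 culture per mouse to each group, so the samples are paired by mouse. Deviations of same-mouse libraries from their group means correlated between -0.42 and 0.45 over 18 pairs, of which 6 were over 0.1. Named genes are the 9 members and those of 48 further complement genes called in any of the first 5 comparisons, while *C1qbp*, *Cd55*, *Cd59a*, *Cd59b*, *Cr1l*, *Cfd*, *Cfi*, *C6* and *Hc* fall outside this rule and were named after their values were seen. A further gene of that list is not reported here. The members and lists were chosen with earlier results of these data known. P-values measure the spread between libraries within a group, estimated in 1 fit over all groups. With 1 culture per mouse in each group, that spread mixes mouse, culture and library. As the fit had no term for mouse, it is not the spread of a treatment effect between mice.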

Additional observations from a re-analysis of the deposited data

Results flagged for a closer look

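In edgeR's interaction test, 4 complement genes were called under at least 1 assignment, and only *Itgax* was called under both. Of all tested genes, 0.105% were called under the first assignment and 7.33% under the other. The 2 interactions of a gene are not separate results, because their sum is fixed by its effect of IL-4 alone. A gene with a strong IL-4 effect and a small interaction under 1 assignment has a large interaction under the other. Whether the effect of IL-4 differed with Wnt3a thus depended on which part received IL-4. Under the first assignment *Itgax* responded less to IL-4 with Wnt3a (interaction -0.88 on the log2 scale, adjusted p = 0.045). Under the other assignment the interaction was -5.00 for *Itgax* (adjusted p = 2.2e-10), -1.63 for *C3* (adjusted p = 9.7e-05), -0.72 for *Calr* (adjusted p = 0.0047) and -0.51 for *C3ar1* (adjusted p = 0.033). With the replicate block, *Itgax* under the first assignment was not called (-0.87, adjusted p = 0.090, edgeR), and it was lost without mouse 1, 2 or 3 (adjusted p = 0.23, 0.061 and 0.70) and without any of 10 of the 12 single libraries (adjusted p between 0.053 and 0.17). *Calr* under the other assignment was lost without mouse 1 (adjusted p = 0.051) or mouse 3 (adjusted p = 0.15). The labels do not say which assignment holds. Among the macrophage markers, IL-4 alone raised *Mrc1* (2.14, adjusted p = 2.6e-05, edgeR) and lowered *Cd14* (-0.51, adjusted p = 0.0017, edgeR). From the difference to the remainder, *Mrc1* also rose (2.33, adjusted p = 1.4e-05, edgeR) and *Cd14* also fell (-0.57, adjusted p = 0.00058, edgeR). The assignment itself was not tested.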

How the results depend on the processing

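No member changed direction past the threshold, and of 1271 values of the 8 members under the alternatives 1206 kept their side of it, 49 lost a call and 16 gained one. Shares of all tested genes are given for the main fit only, so the counts under the alternatives below describe the members alone. A required absolute log2 fold change of at least 1 left 0 members with IL-4, 2 in the difference, 2 in the remainder, 0 between remainder and difference, 2 between remainder and IL-4 and 1 in the interaction under the other assignment. With the deposited columns, which share reads, 7 members were called in Wnt3a+IL-4 against untreated, 0 between the Wnt3a columns and 1 in that interaction, and *Itgax* against IL-4 became -0.23 (adjusted p = 0.11). With all genes of at least 1 count, 5 were called between remainder and difference and 4 in that interaction. With only the groups compared, 1 was called between remainder and difference, and the interactions were not run. Total counts as scaling shifted the median of all genes to -0.10 in the difference and -0.13 in the remainder, called *C1qb* lower in the remainder (-0.31, adjusted p = 0.036, edgeR) and left 1 in that interaction.

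The paired fit with the mouse as replicate block gave 1, 7, 4, 2, 6, 0 and 1 calls in the order of the report, and changed no other call among the members than that of *C3ar1* under the other assignment. Leaving out each mouse or library gave 1 call with IL-4, from 3 to 7 in the difference, from 4 to 5 in the remainder, from 0 to 2 between them, from 4 to 6 against IL-4, 0 under the first assignment and from 1 to 2 under the other. The lowest count in the difference came without mouse 3. Of 2828 values of the further complement genes, 2760 kept their side, 58 lost a call, 9 gained one and 1 reversed. These alternatives for the further genes were chosen after seeing the data. Depth limits *Cfb* in untreated cells, *C1s1*, *Clu*, *Cd55*, *Cd59b* and *Serping1*.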
